A study of Homo sapiens with 2 samples.

Results

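Genes of cholesterol synthesis, fatty acid synthesis and their control by the SREBP pathway were compared between the 2 RNA-seq libraries of ARP1-SRD5A1-KD cells. The set held 32 genes, chosen by name, of the 57485 genes listed for each library, and was taken up after the FPKM values and log2 ratios of these same 2 libraries were known. The values below chose the set and are a description, with no test. The genes were grouped as 18 mevalonate and sterol steps, 8 fatty acid steps and 6 genes of SREBP control with uptake. All 32 reached 1 FPKM (fragments counted relative to transcript length and library size) in both libraries, the lowest value being 2.76 FPKM, so none was kept by a high value in 1 library alone.

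ARP1 is a human cell line of multiple myeloma (MM), a tumour of plasma cells. Its cells carried a TRIPZ lentiviral vector, which makes an shRNA against SRD5A1, a steroid reductase, in the presence of doxycycline (Dox). There was 1 library labelled as untreated and 1 labelled with Dox, both from cells with the hairpin vector. No cells with Dox and without the hairpin were sequenced in the samples used here, so the hairpin and Dox cannot be told apart. The dose and duration of Dox were not given for these libraries in the sources used here, and neither was whether the cells were 1 clone. SRD5A2 is named in the genotype field of the Dox library, whereas SRD5A1 is named in its title and in the series design.

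The libraries held 45918570 and 48728927 expected counts, without and with Dox by their labels. SRD5A1 went from 13.04 to 25.88 FPKM, a log2 ratio of 0.98 (0.78 with TMM factors), against the direction of the label. All directions below therefore rest on the labels. The 8 plasma cell markers had 15.73 to 834.39 FPKM in the 2 libraries, summing to 2398.37 FPKM without Dox and 2304.81 FPKM with Dox. Within them, SLAMF7 (15.73 and 41.75 FPKM) and TNFRSF17 (97.72 and 203.73 FPKM) were more than 2-fold higher with Dox, while SDC1 had 344.56 and 236.58 FPKM, a log2 ratio of -0.54. Of the 3 B cell markers 1 reached 1 FPKM, at most 1.32 FPKM. The 3 T cell and the 3 myeloid markers stayed at or below 0.31 and 0.52 FPKM, and the 5 fibroblast and epithelial markers summed to 8.86 FPKM without Dox and 4.5 FPKM with Dox. Ratios were taken as log2 of FPKM with Dox plus 0.1 over FPKM without Dox plus 0.1, for the 14859 genes that reached 1 FPKM in either library. Their median was 0.15. A gene is said to have risen or fallen where it passed 2-fold. With 1 library per label no ratio has a replicate check. The 95% intervals given are exact binomial intervals of the counts, moved to lie round the FPKM ratio. They cover no other error than counting, and not the difference between ratios of FPKM and of counts.

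Cells make cholesterol from acetyl-CoA by way of mevalonate, farnesyl diphosphate, squalene and lanosterol, and make fatty acids from the same acetyl-CoA. SREBP transcription factors switch on the genes of both routes. They wait in the endoplasmic reticulum bound to SCAP, are held there by INSIG proteins when sterols are plentiful, and are cut free in the Golgi when sterols are low. Plasma cells secrete large amounts of antibody and keep an extended endoplasmic reticulum, whose membranes are built from these lipids.

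Short stretches ahead of the start of 5 of these genes show part of the DNA in which letters of known promoter motifs were looked for. NSDHL and FADS2 are shown because they fell and rose past 2-fold, and INSIG1 and INSIG2 because these paralogues had ratios of opposite sign. SREBF2 was added after its match had been seen, as the 1 gene of the set whose window held TCACNCCAC. All are from the RefSeq promoter table for GRCh38.p14, are written on the forward strand, which is the strand of each of these genes, and leave out exons of protein-coding genes. Capitals mark CCAAT or GGGCGG on either strand in the first 4 stretches, so that ATTGG and CCGCCC are their reverse complements, and mark TCACNCCAC in the SREBF2 stretch.
NSDHL, chrX:152830813-152830966: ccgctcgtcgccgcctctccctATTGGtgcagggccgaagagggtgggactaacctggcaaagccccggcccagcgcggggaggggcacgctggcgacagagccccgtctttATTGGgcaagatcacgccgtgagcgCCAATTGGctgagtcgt
FADS2, chr11:61816154-61816255: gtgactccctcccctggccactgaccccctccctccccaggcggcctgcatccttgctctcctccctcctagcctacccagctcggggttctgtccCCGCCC
INSIG1, chr7:155297628-155297775: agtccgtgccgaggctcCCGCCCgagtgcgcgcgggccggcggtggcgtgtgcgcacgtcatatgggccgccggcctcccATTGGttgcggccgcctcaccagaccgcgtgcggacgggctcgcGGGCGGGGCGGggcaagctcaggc
INSIG2, chr2:118088221-118088451: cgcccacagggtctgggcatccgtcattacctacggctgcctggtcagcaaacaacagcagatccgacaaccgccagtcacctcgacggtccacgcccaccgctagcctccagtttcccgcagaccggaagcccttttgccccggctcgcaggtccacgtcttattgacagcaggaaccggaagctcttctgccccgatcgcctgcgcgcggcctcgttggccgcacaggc
SREBF2, chr22:41832957-41833016: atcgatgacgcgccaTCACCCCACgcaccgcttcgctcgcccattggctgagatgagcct
The NSDHL stretch holds 4 matches to CCAAT and none to GGGCGG. In INSIG1 there are 1 CCAAT and 3 GGGCGG, the INSIG2 stretch has neither, and the FADS2 stretch shown has 1 GGGCGG. In the parts of the windows not printed, GGGCGG occurs for INSIG2 and CCAAT for FADS2, so these genes count as matches in the shares given for whole windows. TCACCCCAC starts 133 bases before the SREBF2 start.

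Across the 32 genes, RNA of the synthesis enzymes was mostly lower in the library labelled with Dox, while RNA of both SREBP genes was higher. Of all genes tested, 31.6% had a higher ratio than SREBF1 and 43.0% a higher one than SREBF2. FDFT1, NSDHL and FASN fell and FADS2 rose. Thus 3 of 32 genes (9.38%) were more than 2-fold lower, beside 6.41% of all genes tested, and 1 (3.12%) was more than 2-fold higher, beside 17.0%. At 1.5-fold, 12 genes were lower, beside 15.4% of all genes tested, and 1 was higher, beside 29.3%. The ratio was below 0 for 23 genes (71.9%), beside 41.5% of all genes tested, and 25 genes lay below the median of all genes tested. All genes tested include noncoding ones. Of the 11480 protein-coding genes tested, 6.04% were more than 2-fold lower, 11.8% more than 2-fold higher and 45.5% below 0. Since these ratios chose the set, nothing is read from the shares.

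The median log2 ratio of the set was -0.34, while it was 0.15 over all genes tested and 0.07 over the 11480 protein-coding genes tested. The median level was 33.67 FPKM without Dox and 23.0 FPKM with Dox, against 10.19 and 11.67 FPKM over all genes tested. In bulk RNA, a smaller share of cells making these RNAs and less of the RNA per cell cannot be told apart. The summed level of the set was 1625.2 FPKM without Dox and 1297.9 FPKM with Dox, a log2 ratio of -0.32. As a share of all counts the set took 0.371% and 0.267%, respectively. ACLY, FASN and SCD together held 41.0% of the counts of the set without Dox and 26.5% with Dox.

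In the mevalonate and sterol group, 2 of 18 genes (11.1%) fell, beside 6.41% of all genes tested, and none rose, beside 17.0%. Ratios were below 0 for 14 of 18 genes (77.8%), beside 41.5% of all genes tested. The group's median log2 ratio was -0.39, and its median level was 29.59 FPKM without Dox and 19.75 FPKM with Dox. The 3 lowest ratios of the group were those of squalene synthase and of 2 enzymes late in the route. The highest was that of a sterol reductase, TM7SF2.

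The steps up to farnesyl diphosphate all stayed within 1.5-fold. ACAT2, the thiolase that joins acetyl-CoA units, had 16.77 and 14.25 FPKM without and with Dox, a log2 ratio of -0.23. HMGCS1, which adds the next acetyl unit to make HMG-CoA, had 38.72 and 27.14 FPKM and a log2 ratio of -0.51. The 2 kinases that act on mevalonate went in different directions on the FPKM scale. MVK, the mevalonate kinase, had 9.24 and 10.32 FPKM, a log2 ratio of 0.16, which was -0.08 on CPM (counts scaled by the library total, without length). PMVK, the kinase of the next step, had 131.25 and 108.95 FPKM and a log2 ratio of -0.27. MVD, which removes a carboxyl group to form isopentenyl diphosphate, had 25.56 and 17.03 FPKM and a ratio of -0.58 on the log2 scale. IDI1 turns isopentenyl diphosphate into its isomer. It was listed at 40.14 and 33.88 FPKM, a log2 ratio of -0.24. FDPS builds farnesyl diphosphate, the branch point to sterols, prenylated proteins, ubiquinone and dolichol. Its 237.2 and 240.77 FPKM were the highest levels of the set in both libraries, and its log2 ratio was 0.02 with an interval of -0.02 to 0.06.

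The enzymes that commit farnesyl diphosphate to sterols were lower. FDFT1, squalene synthase, catalyses the first step that leads only to sterols. It fell from 51.99 to 20.35 FPKM, or from 2193.22 to 956.63 expected counts. That is 2.547-fold lower, with a log2 ratio of -1.35 (interval -1.46 to -1.24), and 3.3% of the genes tested had a lower ratio. SQLE, the squalene epoxidase that uses oxygen, had 29.83 and 18.29 FPKM and a log2 ratio of -0.70. LSS, the cyclase that makes lanosterol, had 29.24 and 17.24 FPKM and a log2 ratio of -0.76. SQLE and LSS passed 1.5-fold but not 2-fold.

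Beyond lanosterol, neighbouring steps differed in size and direction. CYP51A1, the cytochrome P450 that demethylates lanosterol, had 29.36 and 27.77 FPKM and a log2 ratio of -0.08. TM7SF2, a reductase of the following step, had 13.93 and 19.15 FPKM and a log2 ratio of 0.46. MSMO1, NSDHL and HSD17B7 together remove methyl groups from the sterol ring, and their ratios were spread widely. MSMO1, the oxidase of this step, had 37.79 and 26.27 FPKM and a log2 ratio of -0.52. NSDHL, the dehydrogenase that releases the carboxyl group, fell from 21.16 to 9.89 FPKM, with 1459 and 700 expected counts. It was 2.128-fold lower, with a log2 ratio of -1.09 (interval -1.22 to -0.96), and 5.3% of the genes tested had a lower ratio. HSD17B7, the ketoreductase of the step, had 9.4 and 9.68 FPKM, a log2 ratio of 0.04. The last steps move, add and reduce double bonds in the ring. EBP, the sterol isomerase, had 117.77 and 71.4 FPKM and a log2 ratio of -0.72. SC5D, a sterol desaturase, had 8.05 and 6.62 FPKM and a log2 ratio of -0.28. It had 644 expected counts in both libraries, and the mean length of its transcripts was 1984.38 bases without Dox and 2242.41 bases with Dox. DHCR7, the reductase that yields cholesterol, had 50.74 and 26.92 FPKM, a log2 ratio of -0.91 with an interval of -0.99 to -0.83. Its neighbour in the order of ratios of this group was NSDHL, and their intervals overlapped.

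Among the fatty acid genes, FASN fell and FADS2 rose, 1 of 8 (12.5%) in each direction, beside 6.41% of all genes tested lower and 17.0% higher. Ratios were below 0 for 6 of 8 genes (75.0%), beside 41.5% of all genes tested. The group's median log2 ratio was -0.61, and its summed level was 455.8 FPKM without Dox and 274.46 FPKM with Dox. Its share of all counts was 0.19% without Dox and 0.105% with Dox. Ratios above 0 were those of ELOVL5 and FADS2. Both act on polyunsaturated chains, but so does FADS1, whose log2 ratio was -0.05.

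ACLY, which supplies cytosolic acetyl-CoA from citrate, had 151.15 and 78.08 FPKM, a log2 ratio of -0.95 with an interval of -0.98 to -0.92. ACACA, the carboxylase that makes malonyl-CoA, had 29.17 and 21.91 FPKM and a log2 ratio of -0.41. FASN, the synthase that builds palmitate, had the lowest ratio of the set. It fell from 76.75 to 23.5 FPKM and from 22326 to 7751 expected counts. This was 3.256-fold lower, with a log2 ratio of -1.70 (interval -1.74 to -1.67), and 1.8% of the genes tested had a lower ratio. In the GRCh38 annotation of GENCODE release 29, FASN lies on the reverse strand of chromosome 17 from 82078333 to 82098332, and NSDHL on the forward strand of chromosome X from 152830967 to 152869729. Neither overlaps an exon of another annotated gene.

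ELOVL6 and ELOVL5 lengthen fatty acid chains, the former mainly saturated and monounsaturated ones and the latter mainly polyunsaturated ones. ELOVL6 had 49.73 and 27.94 FPKM and a log2 ratio of -0.83, whereas ELOVL5 had 44.1 and 54.26 FPKM and a log2 ratio of 0.30. The level of ELOVL5 was 0.887 of that of ELOVL6 without Dox and 1.94 times it with Dox. SCD, which puts the first unsaturated bond into saturated chains, had 92 and 52.56 FPKM, a log2 ratio of -0.81. FADS1 and FADS2 are desaturases of polyunsaturated fatty acids and lie next to each other on chromosome 11. FADS1 had 10.14 and 9.79 FPKM, a log2 ratio of -0.05. FADS2 rose from 2.76 to 6.42 FPKM, with 270 and 586 expected counts, the lowest counts of the set without Dox. It was 2.28-fold higher on the ratio with the pseudocount, with a log2 ratio of 1.19 (interval 0.98 to 1.40), and 13.3% of the genes tested had a higher ratio. FADS1 was at 3.67 times the FPKM of FADS2 without Dox and 1.52 times with Dox. Exons of the 2 genes overlap by 490 bases on opposite strands, and FADS2 shares 49 bases with FEN1 on its own strand. Whether the counting used strand was not given in the sources used here, so reads in the overlap cannot be assigned with certainty. With TMM factors the log2 ratio of FADS2 was 0.98, below 2-fold.

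In the SREBP group no gene passed 2-fold, beside 6.41% of all genes tested lower and 17.0% higher. Ratios were below 0 for 3 of 6 genes (50.0%), beside 41.5%, with a median log2 ratio of 0.01. Its summed level was 271.23 FPKM without Dox and 317.49 FPKM with Dox, a log2 ratio of 0.23. SREBF1 encodes the SREBP that acts mainly on fatty acid genes and had 107.45 and 155.56 FPKM, a log2 ratio of 0.53 (interval 0.48 to 0.58). On CPM the ratio was 0.76, and the mean length of its transcripts was 1298.52 bases without Dox and 1479.18 bases with Dox. SREBF2 encodes the SREBP that acts mainly on sterol genes and had 80.02 and 97.54 FPKM, a log2 ratio of 0.29 (0.08 with TMM factors). SCAP, the escort and sterol sensor, had 32.51 and 27.14 FPKM and a log2 ratio of -0.26.

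The INSIG paralogues had ratios of opposite sign. INSIG1, itself a target of SREBPs, had 34.84 and 22.5 FPKM, a log2 ratio of -0.63. INSIG2, which is controlled apart from SREBPs, had 6.67 and 8.87 FPKM and a log2 ratio of 0.41. INSIG1 stood at 5.22 times the FPKM of INSIG2 without Dox and at 2.54 times with Dox, a log2 difference of -1.03 between their ratios. STARD4, which carries cholesterol between membranes, had 9.74 and 5.88 FPKM and a log2 ratio of -0.72. The genes past 1.5-fold in this group, INSIG1 and STARD4, were both lower with Dox.

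Counting error was small beside most ratios. The intervals were 0.06 to 0.42 wide on the log2 scale, and the lowest count behind a ratio was 270. The mean transcript length with Dox was between 0.867 and 1.139 of that without Dox. Ratios of FPKM and of CPM differed by over 0.2 for MVK and SREBF1, and had opposite signs for MVK and FADS1.

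The set was also compared under 7 other pseudocounts and scalings. The log2 ratio was below 0 in all of them for 21 genes. It was above 0 in all for TM7SF2, ELOVL5, FADS2, SREBF1, SREBF2 and INSIG2, while the sign depended on the setting for MVK, FDPS, CYP51A1, HSD17B7 and FADS1. TMM factors moved all ratios by -0.21 and DESeq2 size factors by -0.22. With these factors DHCR7, ACLY, SCD and ELOVL6 were also more than 2-fold lower, 7 of 32 genes, beside 10.2% and 10.5% of all genes tested, and no gene was more than 2-fold higher, beside 13.0% and 12.9%. On the TPM scale NSDHL was at -0.99, just within 2-fold. Of the genes past 2-fold among all tested, 72.6% were higher on FPKM, 56.0% with TMM factors and 55.2% with DESeq2 size factors. The SREBP group's median was -0.19 with TMM factors, so its direction relative to 0 depended on the scaling.

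Several of these genes share exonic bases with other genes in GENCODE release 29. CYP51A1 shares 2943 bases on its own strand with AC000120.2 and AC000120.3, and ACAT2 shares 2996 bases on the opposite strand with SOD2, SOD2-OT1 and TCP1. For MVK the overlap is 306 bases with MMAB, and for SREBF1 it is 556 bases with RAI1. FDFT1 shares 217 bases with AC069185.1. HSD17B7 has 2 pseudogenes named after it, which together had 83.11 counts without Dox and 122.29 with Dox. The values of these genes are uncertain to that extent. The 15 genes with no overlap and no such pseudogene, a subset chosen after the values were seen, had a median log2 ratio of -0.58, with FASN and NSDHL fallen and none risen.

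Promoter letters were counted in windows of 250 bases before to 50 after the start for the 28 genes that matched the RefSeq table. ACAT2, FDFT1, SQLE and FASN had no entry. A gene counted as a match if any of its windows held the letters. CCAAT, the box bound by NF-Y, was found on either strand for 21 of 28 genes (75.0%), against 43.8% of the 8972 tested genes matched. By window it was in 25 of the 38 windows of these genes, beside 34.6% of all 35116 windows in the table. The median log2 ratio was -0.51 for the 21 genes with CCAAT and -0.08 for the 7 without, beside 0.09 and 0.05 among tested genes with and without it. These ratios chose the set, and the 4 genes with no entry are in neither group. A link between CCAAT and the ratios was not tested. GGGCGG, the core of the box bound by Sp1, was found for 26 of 28 genes (92.9%), against 77.1% of tested genes. By window it was in 33 of 38, beside 45.0% of all windows. The genes without it were ELOVL5 and NSDHL. TCACNCCAC, a core of the sterol regulatory element, was found only for SREBF2 (3.6%), against 1.4% of tested genes. By window it was in 1 of 38, beside 1.1% of all windows. Matches may overlap, as do 2 of CCAAT on opposite strands in NSDHL and 2 of GGGCGG in INSIG1. A match is a run of letters and not a bound site, and no match says only that these letters are not in the window.

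The neighbouring pathways were described by lists compiled with earlier results of these data known. Of the 11 tested genes of SREBP cleavage and sterol-regulated degradation, none passed 2-fold, beside 17.0% of all genes tested higher and 6.41% lower, and the median log2 ratio was 0.14, near the 0.15 of all genes tested. MBTPS2, a protease that releases SREBPs, had 7.23 and 11.78 FPKM, a log2 ratio of 0.70. ERLIN2, which takes part in the sterol-regulated breakdown of endoplasmic reticulum proteins, had 13.91 and 23.23 FPKM and a log2 ratio of 0.74. UBE2G2, a ubiquitin-conjugating enzyme of endoplasmic reticulum degradation, had 111.24 and 83.81 FPKM and a log2 ratio of -0.41. C12orf49, the older symbol of SPRING1, needed for SREBP processing, had 11.62 and 8.26 FPKM and a log2 ratio of -0.49.

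Among the 7 genes of LXR and cholesterol export, 2 rose (28.6%, beside 17.0% of all genes tested) and 1 fell (14.3%, beside 6.41%), with a median log2 ratio of -0.16. ABCA1, which exports cholesterol to apolipoproteins, rose from 2.38 to 9.5 FPKM, a log2 ratio of 1.95. ABCG1, a further cholesterol exporter, rose from 0.57 to 2.9 FPKM with a log2 ratio of 2.16. ABCG1 reached 1 FPKM only with Dox, so its high value itself brought it among the tested genes and into the 28.6%. It lies below the level set for naming genes and is named because it is 1 of the 2 that rose. LPCAT3, an enzyme that puts polyunsaturated chains into phospholipids, fell from 35.35 to 16.5 FPKM with a log2 ratio of -1.09. NR1H3, the gene of LXR alpha, had 7.36 and 6.2 FPKM, and MYLIP, a ligase for lipoprotein receptors, had 8.5 and 7.6 FPKM. The exporters and LPCAT3, all known LXR targets, thus had ratios of opposite sign.

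For cholesterol movement and storage, 1 of 10 tested genes (10.0%) fell, beside 6.41% of all genes tested, and none rose, beside 17.0%, with a median log2 ratio of -0.01. SCARB1, the HDL receptor, fell from 71.67 to 18.13 FPKM, a log2 ratio of -1.98. OSBPL2 and OSBP, which move sterols between membranes, had log2 ratios of 0.73 and 0.61. GRAMD1A, a carrier of cholesterol from the plasma membrane, had 46.56 and 29.85 FPKM and a log2 ratio of -0.64. The non-sterol isoprenoid branches held 1 gene that rose and 1 that fell among 12 (8.33% each, beside 17.0% and 6.41% of all genes tested), with a median of 0.02. GGPS1, which makes geranylgeranyl diphosphate from farnesyl diphosphate, rose from 10.61 to 35.35 FPKM, a log2 ratio of 1.73. PDSS1, which makes the side chain of ubiquinone, fell from 36.22 to 11.91 FPKM, a log2 ratio of -1.60. RABGGTB and FNTA, subunits of prenyl transferases, had log2 ratios of -0.77 and 0.47.

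Among 22 tested genes of other acyl chain and glycerolipid steps, 2 rose (9.09%, beside 17.0% of all genes tested) and none fell, beside 6.41%. Ratios were below 0 for 16 of them (72.7%, beside 41.5%), with a median of -0.30. MID1IP1, an activator of acetyl-CoA carboxylase, rose from 23.63 to 53.51 FPKM, a log2 ratio of 1.18. ACSL3, which activates fatty acids with CoA, rose from 19.51 to 43.73 FPKM, a log2 ratio of 1.16. With TMM factors these 2 ratios were 0.97 and 0.95, below 2-fold. GPAM and AGPAT2, acyltransferases of glycerolipid synthesis, had log2 ratios of 0.75 and -0.73. In mitochondrial fatty acid oxidation none of 12 tested genes passed 2-fold, beside 17.0% of all genes tested higher and 6.41% lower, and the median was 0.28, the highest of the 6 neighbouring lists. CPT1B and CPT1A, which load fatty acids for entry into mitochondria, had log2 ratios of 0.98 and 0.50, and on TPM that of CPT1B was 1.08, past 2-fold. ECI1, an enoyl-CoA isomerase, had 31.32 and 47.42 FPKM and a log2 ratio of 0.60, while ACADVL, a dehydrogenase of long chains, had 384.38 and 273.36 FPKM and a log2 ratio of -0.49. With TMM factors the medians of the lists of SREBP cleavage and of isoprenoid branches were -0.07 and -0.18, so their sign depended on the scaling.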

How the data were processed

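The 2 libraries of ARP1-SRD5A1-KD cells, labelled as untreated and as treated with Dox, were made from poly(A) RNA and sequenced as paired reads of 150 bases. The authors deposited an expected count per gene, estimated where reads match several transcripts and so not always whole. The TPM values that the authors deposited scale these counts by effective length within each library. The authors deposited FPKM values, which divide counts by effective length and library total, and the mean and effective length of each gene. Annotation columns as text were not used. The submitters' processing notes name HISAT2 2.1.0, StringTie 1.3.4d, Bowtie 0.12.2 and hg19, without their roles. Of 204675 listed transcripts, 202888 are in GENCODE release 29 with the same version, so gene types and coordinates were taken from that release on GRCh38. How the notes and these identifiers go together is not given in the sources used here.

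The genes and all lists were chosen with earlier results of these data known. Log2 ratios used a pseudocount of 0.1 FPKM, which understates the change of low genes, for genes that reached 1 FPKM in either library, and a change was counted past 2-fold. The study's methods state edgeR, which cannot estimate a dispersion with 1 library per condition, so no p-value is given. Counts were rounded for exact binomial (Clopper-Pearson) 95% intervals, conditional on the library totals. Each interval was then moved by the difference between the FPKM ratio and the count ratio of its gene. At this depth, 3 counts equal 0.065 and 0.062 CPM. Reads carry no molecular identifiers, so intervals cover counting error only. All 32 genes are named, and of each neighbouring list up to 4 genes with the largest absolute ratio among those reaching 5 FPKM in either library, with ABCG1 added after its value was seen.

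Alternatives covered the pseudocount (1 and 0.01 FPKM), the filter, TPM, CPM, TMM factors of edgeR 4.0.16, DESeq2 1.42.0 size factors, centring on protein-coding genes and a limit of 1.5-fold. TMM and DESeq2 factors came from genes with at least 10 counts. R 4.3.3, Python 3.11.15, pandas 2.3.3, numpy 2.4.6, scipy 1.17.1 and matplotlib 3.10.9 were used. The binomial intervals of count ratios, before they were moved, were tested on counts simulated with counting error alone. Other steps were not tested on simulated data. Promoter windows are RefSeq sequences of GRCh38.p14, and 34 of the 38 windows of these genes hold a GENCODE transcript start on the written strand.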

Additional observations from a re-analysis of the deposited data

How the results depend on the processing

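With 1 library per label, no replicate could be left out, and no ratio has an error between cultures. No paired analysis was possible because each condition has a single library. The median log2 ratio of the 32 genes was -0.34 and kept its direction in all settings, at -0.25 on TPM, -0.27 on CPM, -0.55 with TMM factors, -0.56 with DESeq2 size factors and -0.58 over the 15 genes without overlaps or pseudogenes, a subset chosen after seeing the data. The number of genes more than 2-fold higher, 1, became 0 with a pseudocount of 1 FPKM, TMM factors, DESeq2 size factors or that subset. The number more than 2-fold lower, 3, became 7 with TMM factors, 7 with DESeq2 size factors and 12 at 1.5-fold. TMM and DESeq2 factors shift all ratios by -0.21 and -0.22. By construction, a pseudocount of 1 FPKM shrinks the ratio of a low gene such as FADS2. TPM brings the FPKM of each library, summing to 911506 without and 852316 with Dox, to a common sum, which shifts all ratios upward alike. A limit of 1.5-fold can only add genes to those past 2-fold, and the subset leaves out FADS2. For the moves of the median on CPM and in the subset the cause was not tested. Past 2-fold, 2521 of all genes tested were higher and 953 lower. A pseudocount of 1 FPKM gave 1606 and 651, no filter 4735 and 1897, a filter at 5 FPKM 1256 and 603, TMM factors 1936 and 1519, DESeq2 size factors 1914 and 1556, and 1.5-fold 4358 and 2288. Of 224 single-gene values under 7 alternatives, 121 stayed inside their counting interval and 103 lay outside it. Several alternatives shift all ratios by about the same amount, so a narrow interval from high counts is left more easily. These numbers are thus no measure of how firm a ratio is. None of the genes past 2-fold changed sign.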
